A study of Homo sapiens with 4 samples.

Results

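The HOX genes described here are the 39 protein-coding genes of the HOXA, HOXB, HOXC and HOXD clusters, chosen from the 60676 genes of the deposited expression table by biotype and by a symbol made of the cluster name and a number. The clusters held 11, 10, 9 and 9 of them, and their levels did not enter the choice. RNA was sequenced from 2 libraries of HEK293, a line derived from human embryonic kidney and labelled wild type, and from 2 libraries of Synph-293, the same line overexpressing synphilin-1, the product of SNCAIP. Both were untreated and grown in DMEM with 10% serum. The sources used here do not say whether replicates were separate cultures, so p-values measure the spread between these libraries, which may be technical, nor whether Synph-293 was 1 clone or a pool, nor which promoter drove the transgene.

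HOX genes encode homeodomain transcription factors that give cells of the embryo their position along the head-to-tail axis, and many adult tissues and cell lines keep a HOX pattern that reflects their origin. Within a cluster the genes lie in the order of their paralogue numbers, low numbers acting at the anterior end and high numbers at the posterior end of the body and limbs. Polycomb proteins keep the clusters silent, trithorax proteins and retinoic acid counter them, and PBX and MEIS proteins bind DNA together with HOX proteins. In the kidney, paralogues of groups 10 and 11 are known from mice to be needed for its formation.

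Of the 39 genes, 34 were tested and 9 passed the test for a difference between the lines, where 16.6% of all genes tested passed, and the results turn on these 9. Promoter sequences were looked up for them. RefSeq's table (GRCh38.p14) gives 250 bases before to 50 after the start of a gene, and it held entries for HOXA7 and HOXD13 of the 9 and for 20 of the 39 HOX genes. HOXB3, HOXB5, HOXB6, HOXB8, HOXB9, HOXC6 and HOXC13 had none. The window of HOXA7 was chr7:27156626-27156925 on the minus strand and that of HOXD13 chr2:176092471-176092770 on the plus strand. RefSeq places the start of HOXA7 inside the longer gene body of the deposited annotation, so its window lies within that body. Both are shown 5′ to 3′ with CG dinucleotides, the sites of DNA methylation, in capitals, since these are a riser and the single gene that fell.
HOXA7: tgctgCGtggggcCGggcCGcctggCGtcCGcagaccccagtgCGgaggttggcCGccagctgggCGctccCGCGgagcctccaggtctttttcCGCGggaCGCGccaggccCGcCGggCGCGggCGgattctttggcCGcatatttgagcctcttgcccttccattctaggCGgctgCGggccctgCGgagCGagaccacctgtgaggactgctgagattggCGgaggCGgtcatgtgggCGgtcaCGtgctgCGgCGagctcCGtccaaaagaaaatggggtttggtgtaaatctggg
HOXD13: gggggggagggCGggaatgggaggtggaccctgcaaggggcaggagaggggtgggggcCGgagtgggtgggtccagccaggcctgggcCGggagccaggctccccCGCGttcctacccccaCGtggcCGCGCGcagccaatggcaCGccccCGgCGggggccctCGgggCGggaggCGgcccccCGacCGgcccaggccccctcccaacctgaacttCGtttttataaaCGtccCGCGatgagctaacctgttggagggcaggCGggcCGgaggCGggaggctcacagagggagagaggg

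The HOXA7 window held 31 CG dinucleotides, more than 79.3% of 35116 promoter windows, and the HOXD13 window 24, more than 66.1%. The median was 14 over all windows and 22 over the 27 windows of HOX genes, which ranged from 0 to 44. The motifs searched on both strands were TATAAA, the TATA box, AGGTCA, bound by nuclear receptors such as those for retinoic acid, and TGATTNAT, bound by HOX and PBX proteins together. TATAAA was in the windows of HOXA3, HOXA9, HOXA10 and HOXD13 and in 11.5% of all windows. TGATTNAT was in those of HOXA2 and HOXD11 and in 2.82% of all windows. AGGTCA was in 13.8% of all windows and in none of the 20 HOX genes with an entry. A match is a description of these letters and shows no binding.

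Because related genes could be confused in counting, GENCODE 29 transcripts were searched for shared sequence. Across whole transcripts, none of the 569 pairs of HOX genes in different clusters shared an exact run as long as a 150-base read, the longest being 62 bases between HOXB3 and HOXD3. Of 172 pairs within a cluster, 3 did, namely HOXC4 with HOXC6 (484 bases), HOXD10 with HOXD11 (457) and HOXB3 with HOXB6 (434). These are overlapping genes with common exons, and the division of their reads between the genes of each pair is uncertain. On the same strand, the gene body of HOXA3 also overlaps HOXA4, HOXA5 and HOXA6, that of HOXC6 overlaps HOXC4, HOXC8 and HOXC9, and HOXA9 overlaps HOXA10, HOXC4 overlaps HOXC5 and HOXD3 overlaps HOXD4.

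Libraries held 13284417 to 16998732 counts, and 22087 to 23854 genes were above 0. Mitochondrial transcripts took 10.6% and 7.76% of the counts in HEK293 and 7.28% and 10.9% in Synph-293. SNCAIP was at 0.58 and 1.35 TPM in HEK293 and 636 and 677 TPM in Synph-293, with both Synph-293 libraries far above both controls (log2 fold change 10.36 ± 0.29 (SE), edgeR adjusted p = 1.18e-08), as labelled. Of 13 markers of embryonic kidney and of HEK293, 11 were tested and 4 were higher and 1 lower in Synph-293. The largest changes were those of PAX2, a renal lineage factor, with a log2 fold change of 2.87 ± 0.33 (SE), NEFL with 2.17 ± 0.17, KRT8 with 1.02 ± 0.20 and SIX2, a nephron progenitor factor, with -0.76 ± 0.21. VIM, the gene of vimentin, was at 428 and 500.4 TPM in HEK293 and 727 and 647 TPM in Synph-293, while CDH6 was at 0 in all 4. The endothelial markers together reached at most 2.29 TPM, and the leukocyte genes PTPRC and CD3E at most 0.22 TPM. The blood list summed to 91.2 to 124 TPM because of HBB, a globin gene, at 87.4 to 120 TPM. The fibroblast list summed to 21.4 and 23.2 TPM in HEK293 and 39.4 and 37.1 TPM in Synph-293, with COL1A1 and COL3A1 the 2 of 5 tested members past the threshold, and with THY1 and DCN at or below 0.30 TPM. Of all genes tested, 10.0% passed as higher and 6.58% as lower, and differences of these lists from those shares were not tested. The part of the marker differences in the HOX results was not tested either. Fewer cells expressing a gene and less RNA per cell cannot be told apart in such libraries.

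The HOX genes together made up 313 and 315 TPM in HEK293 and 385 and 380 TPM in Synph-293, where TPM is a transcript level scaled for gene length and library size. The groups did not overlap, and the means were 314 ± 0.933 and 382 ± 3.10 TPM (SD, n = 2), a ratio of 1.22. The counts behind these levels were 4642 to 7131 per library, or 0.0348% and 0.0349% of all counts in HEK293 and 0.0433% and 0.0426% in Synph-293. Of the 39 genes, 34 passed a filter on low counts and were tested with edgeR's quasi-likelihood test, adjusted over all 16421 genes tested. In Synph-293, 8 were higher, 1 was lower, and 25 did not pass the threshold of 0.05. Of all genes tested, 16.6% passed, 10.0% as higher and 6.58% as lower, against 26.5% of the tested HOX genes, a difference in shares that was not tested. The median log2 fold change was 0.10 over the tested HOX genes and -0.01 over all genes tested. The HOX median depended on single libraries, at 0.02 and 0.26 without HEK293 replicates 1 and 2 and at 0.08 and -0.04 without Synph-293 replicates 1 and 2. Of the 39 genes, 14 had both Synph-293 libraries above both HEK293 libraries in TPM and 8 had both below. The share of all genes that separated in this way was not counted, so these counts are not read as a HOX trait. With 2 libraries a group, such a separation can often arise without a difference between the lines.

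**Figure D1:**
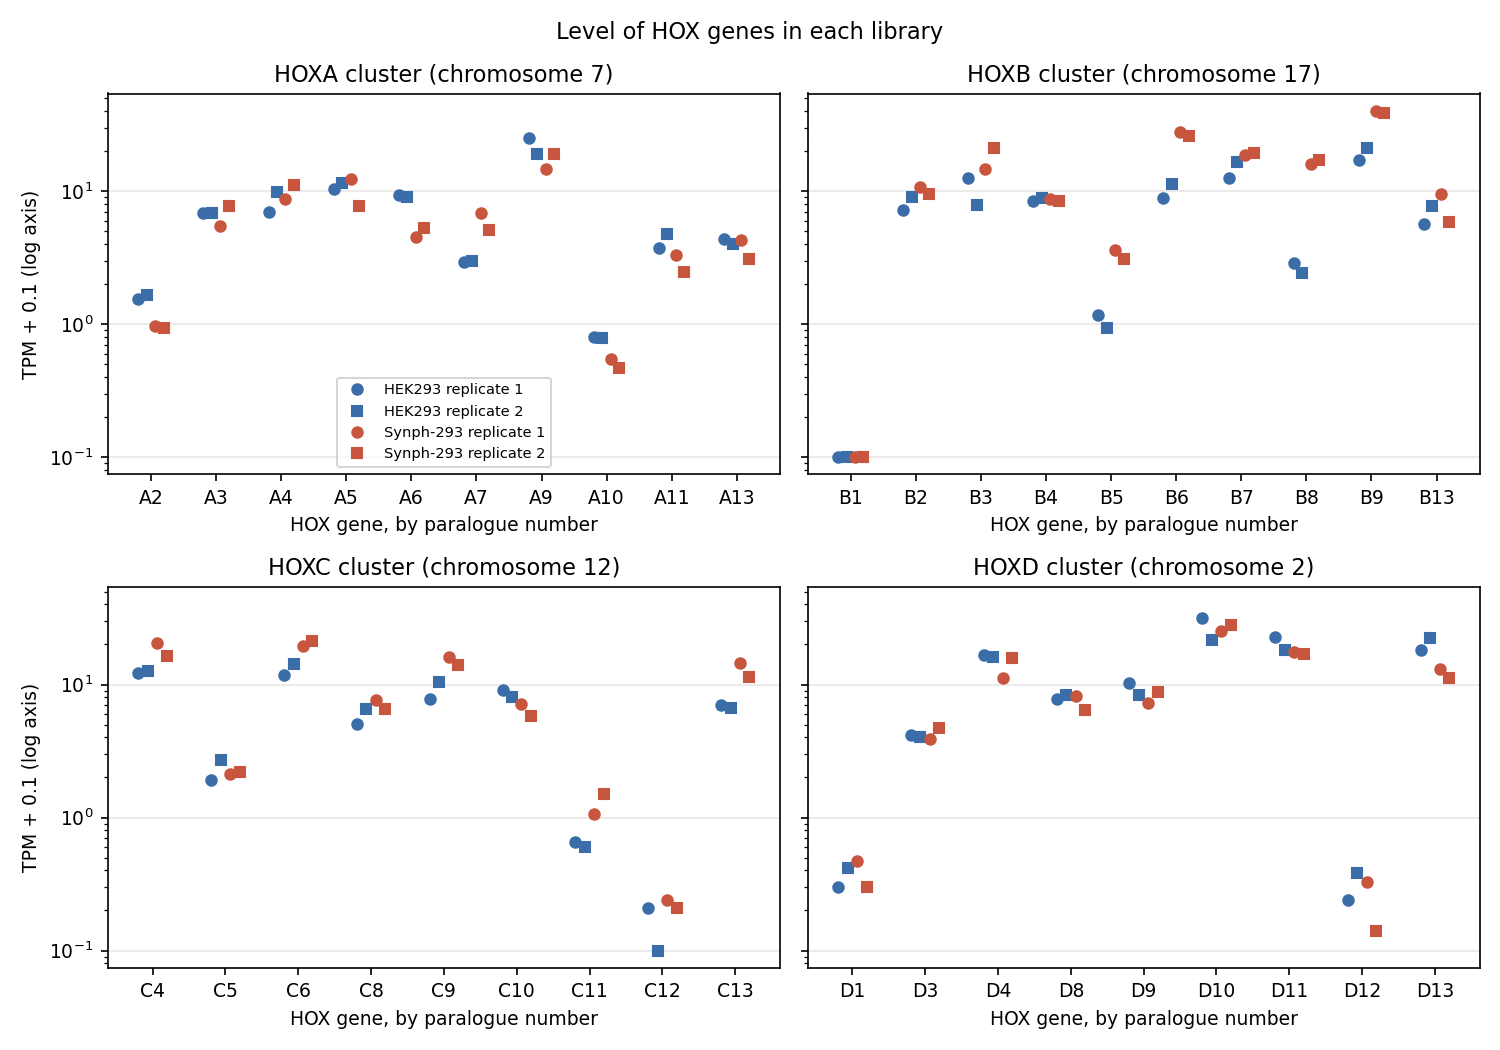
TPM + 0.1 on a log axis for HOX genes, ordered by paralogue number within each cluster. Each point is 1 library, blue for HEK293 and red for Synph-293, circles for replicate 1 and squares for replicate 2; the groups stand clearly apart at HOXB8, at 2.76 and 2.31 TPM in HEK293 and 15.8 and 16.9 TPM in Synph-293, and HOXB1 is at 0 in all 4 libraries.

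The clusters did not share a direction in these libraries. HOXB genes summed to 75.6 and 84.8 TPM in HEK293 and to 148 and 148 TPM in Synph-293, a ratio of 1.84. HOXC genes summed to 54.7 and 61.1 TPM against 87.8 and 78.3 TPM, a ratio of 1.43. In both clusters every Synph-293 library lay above every HEK293 library. HOXA genes summed to 71.8 and 70.1 TPM against 62.2 and 62.9 TPM, and HOXD genes to 111 and 98.7 TPM against 86.2 and 91.3 TPM, with ratios of 0.882 and 0.846. Here both Synph-293 libraries lay below both HEK293 libraries.

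As a result the order of the clusters by summed level changed. In HEK293 the HOXD cluster was the most abundant, with 33.4% of all HOX TPM, followed by HOXB with 25.5%, HOXA with 22.6% and HOXC with 18.4%. In Synph-293 the HOXB cluster led with 38.7%, followed by HOXD with 23.2%, HOXC with 21.7% and HOXA with 16.4%. The HEK293 sums of HOXA and HOXB were close, at 71.0 ± 1.21 and 80.2 ± 6.51 TPM, as were those of HOXD and HOXC in Synph-293, at 88.8 ± 3.59 and 83.0 ± 6.68 TPM (SD, n = 2).

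A ratio of 2 clusters within a library does not depend on how the library was scaled. The log2 ratio of HOXB to HOXA was 0.07 and 0.27 in HEK293 and 1.25 and 1.23 in Synph-293, a difference of 1.07. That of HOXD to HOXB was 0.56 and 0.22 against -0.78 and -0.69, a difference of -1.13, so the HOXD cluster was above HOXB in both HEK293 libraries and below it in both Synph-293 libraries. The log2 ratio of HOXC to HOXA differed by 0.70 and that of HOXD to HOXC by -0.76, again without overlap of the groups. The log2 ratio of HOXC to HOXB was -0.47 and -0.47 against -0.76 and -0.91, a difference of -0.37. The log2 ratio of HOXD to HOXA overlapped between the lines, at 0.63 and 0.49 against 0.47 and 0.54, with a difference of -0.06. In a two-sided exact permutation test over the 4 libraries the first 5 of these 6 ratios gave p = 0.333, which is the smallest p that this design allows, and the last gave p = 0.667.

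**Figure D2:**
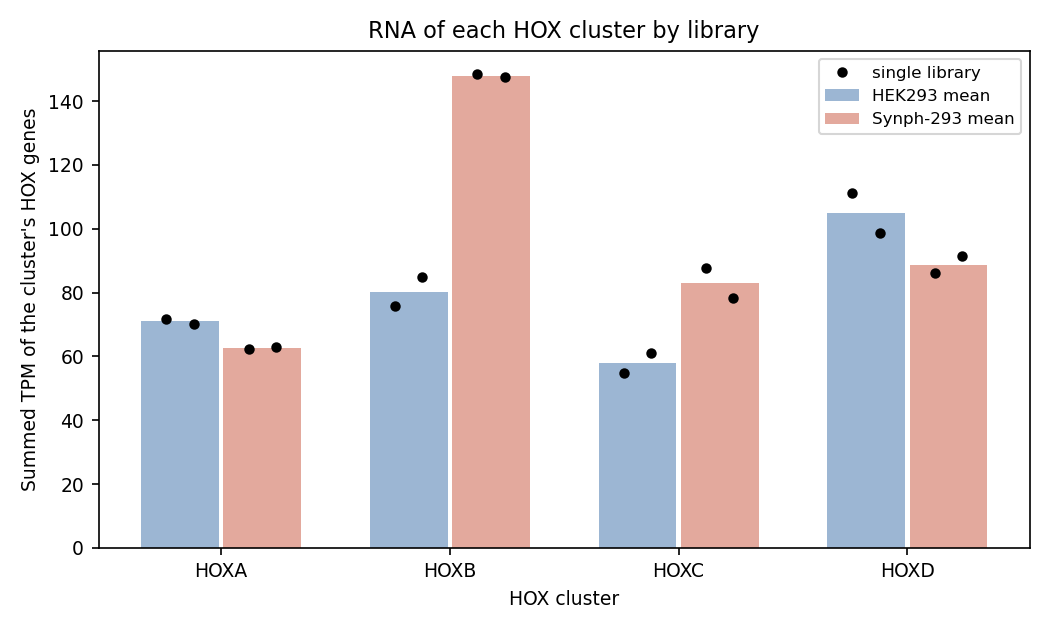
Summed TPM of the HOX genes of each cluster; bars are group means (n = 2), blue for HEK293 and red for Synph-293, and black points are single libraries. The HOXB means are 80.2 and 148 TPM and the HOXC means 57.9 and 83.0 TPM, while both Synph-293 points of HOXA and HOXD lie below the HEK293 points.

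The HOXB cluster lay on chromosome 17 (48528526 to 48729178, GRCh38.p13 as in the deposited table). Of its 9 tested genes 5 rose, where 10.0% of all genes tested did, and the other 4 did not pass the threshold. The edgeR test found no HOXB gene lower at an unadjusted p under 0.05 either, nor did DESeq2 or limma call one. HOXB8 (ENSG00000120068, chromosome 17, 48611377 to 48615292), which in mice acts in blood cell progenitors and in microglia, was at 2.76 and 2.31 TPM in HEK293 and 15.8 and 16.9 TPM in Synph-293. Both Synph-293 libraries were several times above both HEK293 libraries. The fold change from the counts was 5.30 (log2 fold change 2.41 ± 0.22 (SE), edgeR adjusted p = 3.50e-05), the largest of any HOX gene tested, and it stayed past the threshold in all 13 alternative settings, with log2 fold changes of 2.21 to 2.65.

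HOXB5 (ENSG00000120075, chromosome 17, 48591257 to 48593961), needed in mice for the neural crest cells that innervate the gut, was at 1.06 and 0.83 TPM in HEK293 and 3.53 and 2.97 TPM in Synph-293. It was among the low HOX genes in HEK293 and reached only moderate levels in Synph-293, with no overlap between the groups (3.38-fold, log2 fold change 1.76 ± 0.31 (SE), edgeR adjusted p = 0.00296). HOXB6 (ENSG00000108511, chromosome 17, 48595751 to 48604992), a homeodomain factor of the trunk, was at 8.78 and 11.3 TPM in HEK293 and 27.5 and 25.7 TPM in Synph-293. It was higher in every Synph-293 library than in every HEK293 library (2.41-fold, log2 fold change 1.27 ± 0.18 (SE), edgeR adjusted p = 8.68e-04). HOXB9 (ENSG00000170689, chromosome 17, 48621156 to 48626358), which in mice patterns the thoracic skeleton, was the most abundant HOXB gene in both lines. It stood at 17.1 and 21.0 TPM in HEK293 and 40.0 and 38.2 TPM in Synph-293, with the groups apart (2.06-fold, log2 fold change 1.04 ± 0.16 (SE), edgeR adjusted p = 0.00127). HOXB5, HOXB6 and HOXB9 also passed in all 13 alternative settings.

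HOXB3 (ENSG00000120093, chromosome 17, 48548870 to 48604912), a gene of the hindbrain and upper spinal cord, was at 12.5 and 7.72 TPM in HEK293 and 14.6 and 20.9 TPM in Synph-293. The groups did not overlap, but the gap between HEK293 replicate 1 and Synph-293 replicate 1 was small (1.91-fold, log2 fold change 0.93 ± 0.23 (SE), edgeR adjusted p = 0.0188). In each group the library with the larger mitochondrial share also had the higher HOXB3 level, and the part of that share in the result was not tested. The call was lost without Synph-293 replicate 2, where the log2 fold change was 0.66 and the edgeR adjusted p = 0.141, and with limma on TPM values.

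The other HOXB genes lay between and beside those that rose. HOXB4, studied for its effect on blood stem cells and placed between HOXB3 and HOXB5, was at 8.30 and 8.69 TPM in HEK293 and 8.56 and 8.34 TPM in Synph-293, almost the same in all 4 libraries, with a log2 fold change of -0.01 ± 0.19 (SE). HOXB7, next to HOXB8, was at 12.5 and 16.5 TPM in HEK293 and 18.4 and 19.4 TPM in Synph-293, with a log2 fold change of 0.17 ± 0.20 (SE, edgeR adjusted p = 0.601). In TPM both of its Synph-293 libraries lay above both HEK293 libraries. HOXB2, a hindbrain gene, was at 7.16 and 8.88 TPM in HEK293 and 10.6 and 9.42 TPM in Synph-293 (log2 fold change 0.35 ± 0.21, edgeR adjusted p = 0.283). Its groups were close but did not overlap. HOXB13, a gene of the prostate at the posterior end of the cluster, was at 5.52 and 7.62 TPM in HEK293 and 9.39 and 5.75 TPM in Synph-293, and its groups overlapped (log2 fold change 0.20 ± 0.23). HOXB1, the most anterior member, was at 0 in all 4 libraries and was not tested. A count of 0 limits its level to 0.176 to 0.226 CPM per library at 3 counts, for counting error only.

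Annotated gene bodies in the cluster overlap on the same strand: HOXB7 spans HOXB8 and HOXB9, and HOXB3 spans HOXB4, HOXB5 and HOXB6. Within such a span, HOXB5 and HOXB6 passed and HOXB4 did not, and HOXB8 and HOXB9 passed and HOXB7 did not. HOXB3 and HOXB6 share exons, and the division of reads between them is uncertain, as stated above. The 30 nearest tested genes outside the cluster had a median log2 fold change of 0.20 (0.11 for the more distant HOXB13), against 0.93 for the 9 tested HOXB genes. With the median of the neighbours removed, HOXB5, HOXB6, HOXB8 and HOXB9 still passed and HOXB3 did not (edgeR adjusted p = 0.0683).

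In the HOXC cluster (chromosome 12, 53938831 to 54056030), 2 of 8 tested genes rose and 6 did not pass. The share of all genes tested that rose was 10.0%. No HOXC gene was lower at an unadjusted p under 0.05 with edgeR, and DESeq2 and limma called none lower. HOXC13 (ENSG00000123364, chromosome 12, 53938831 to 53946544), the gene of hair and nail keratin programmes at the posterior end of the cluster, was at 6.88 and 6.53 TPM in HEK293 and 14.4 and 11.4 TPM in Synph-293. Both Synph-293 libraries were well above the HEK293 pair (1.91-fold, log2 fold change 0.93 ± 0.18 (SE), edgeR adjusted p = 0.00566), and the call held in all 13 alternative settings, at log2 fold changes of 0.83 to 1.04.

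HOXC6 (ENSG00000197757, chromosome 12, 53990624 to 54030823), which in mice sets the identity of motor neurons at the level of the forelimb, was the most abundant HOXC gene in both lines at 11.6 and 14.1 TPM in HEK293 and 19.5 and 21.0 TPM in Synph-293. The groups did not overlap (1.63-fold, log2 fold change 0.70 ± 0.18 (SE), edgeR adjusted p = 0.0195). Leaving out Synph-293 replicate 2 ended the call (edgeR adjusted p = 0.190), as did limma, and the gene shares exons with HOXC4, as shown above.

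Another 3 HOXC genes, HOXC4, HOXC9 and HOXC11, had both Synph-293 libraries above both controls without passing the test. HOXC4 was at 12.1 and 12.6 TPM in HEK293 and 20.3 and 16.3 TPM in Synph-293 (log2 fold change 0.53 ± 0.18, edgeR adjusted p = 0.0644). HOXC9, a gene of thoracic motor neurons in mice, was at 7.70 and 10.3 TPM in HEK293 and 15.9 and 13.8 TPM in Synph-293 (log2 fold change 0.67 ± 0.23, edgeR adjusted p = 0.068). HOXC11 was at 0.55 and 0.50 TPM in HEK293 and 0.96 and 1.41 TPM in Synph-293 (log2 fold change 1.04 ± 0.35, edgeR adjusted p = 0.0647). All 3 passed in at least 1 alternative setting. HOXC10, of the lumbar level, lay the other way, at 8.95 and 7.99 TPM in HEK293 and 7.01 and 5.72 TPM in Synph-293, and did not pass (log2 fold change -0.28 ± 0.21). HOXC8 and HOXC5 overlapped between the groups, HOXC8 at 4.98 and 6.45 TPM in HEK293 and 7.58 and 6.42 TPM in Synph-293 and HOXC5 at 1.81 and 2.60 TPM in HEK293 and 2.03 and 2.08 TPM in Synph-293. HOXC12 had 0 to 5 counts per library, at most 0.14 TPM, and was not tested. The 30 nearest genes outside the cluster had a median log2 fold change of 0.04, against 0.60 for the 8 tested HOXC genes.

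In the HOXD cluster (chromosome 2, 176092721 to 176190907), 1 of 7 tested genes fell and the other 6 did not pass. The share of all genes tested that fell was 6.58%. No HOXD gene was higher at an unadjusted p under 0.05 with edgeR, or by DESeq2 or limma. HOXD13 (ENSG00000128714, chromosome 2, 176092721 to 176095944), the gene of digit formation that is mutated in synpolydactyly, was at 18.2 and 22.1 TPM in HEK293 and 12.97 and 11.0 TPM in Synph-293. Both Synph-293 libraries lay below both HEK293 libraries, by 1.68-fold in the counts (log2 fold change -0.75 ± 0.17 (SE), edgeR adjusted p = 0.0117). Omission of Synph-293 replicate 1 (edgeR adjusted p = 0.0527) or 2 (0.120) ended the call, as did limma (0.0537) and removal of the median of the 30 neighbours, where the log2 fold change was -0.50 and the edgeR adjusted p = 0.0914.

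HOXD10, a gene of lumbar motor neurons and the hindlimb in mice, was the most abundant HOXD gene in both lines at 31.4 and 21.5 TPM in HEK293 and 25.1 and 27.9 TPM in Synph-293. Its groups overlapped (log2 fold change -0.05 ± 0.19). HOXD11, which with HOXA11 forms the kidney and forearm in mice, was at 22.7 and 18.1 TPM in HEK293 and 17.5 and 17.0 TPM in Synph-293, with both Synph-293 libraries slightly lower (log2 fold change -0.26 ± 0.19, edgeR adjusted p = 0.379). The division of reads between HOXD10 and HOXD11 is uncertain, as stated above. HOXD4 was at 16.6 and 15.9 TPM in HEK293 and 11.2 and 15.6 TPM in Synph-293, lower in both Synph-293 libraries but by little in replicate 2 (log2 fold change -0.26 ± 0.23, edgeR adjusted p = 0.468). HOXD9, a gene of the limb bud and the lower trunk, was at 10.2 and 8.26 TPM in HEK293 and 7.16 and 8.64 TPM in Synph-293, and the ranges overlapped. HOXD8 was at 7.74 and 8.31 TPM in HEK293 and 8.04 and 6.33 TPM in Synph-293, and HOXD3 at 4.07 and 3.96 TPM in HEK293 and 3.77 and 4.58 TPM in Synph-293. Both overlapped between the lines. HOXD1 had 4 to 7 counts and HOXD12 1 to 6 counts per library, and neither was tested. The median log2 fold change of the 7 tested HOXD genes was -0.23 (-0.31 to -0.04 when a library was left out), next to -0.25 for the 30 nearest genes outside the cluster.

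In the HOXA cluster (chromosome 7), 1 of 10 tested genes rose, where 10.0% of all genes tested did, and 9 did not pass. None was called lower by edgeR or DESeq2, with 3 at an unadjusted p under 0.05 in that direction, while limma called 1 lower. HOXA7 (ENSG00000122592, chromosome 7, 27153716 to 27157936), a gene of the trunk also expressed in some leukaemias, was at 2.82 and 2.89 TPM in HEK293 and 6.77 and 4.99 TPM in Synph-293. Both Synph-293 libraries were higher (2.30-fold, log2 fold change 1.20 ± 0.27 (SE), edgeR adjusted p = 0.0106). It did not pass once Synph-293 replicate 1 was left out (edgeR adjusted p = 0.0596).

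HOXA6, directly next to HOXA7, lay in the opposite direction at 9.17 and 8.90 TPM in HEK293 and 4.38 and 5.14 TPM in Synph-293. Its groups did not overlap, and it missed the threshold with edgeR (log2 fold change -0.86 ± 0.28, adjusted p = 0.0563), though it passed with no filter on counts and with limma. HOXA2, a gene of the hindbrain and the branchial arches, was at 1.44 and 1.56 TPM in HEK293 and 0.87 and 0.84 TPM in Synph-293 (log2 fold change -0.83 ± 0.36, edgeR adjusted p = 0.141). HOXA11, the kidney and forearm paralogue of HOXD11, was at 3.65 and 4.65 TPM in HEK293 and 3.20 and 2.38 TPM in Synph-293 (log2 fold change -0.52 ± 0.23, edgeR adjusted p = 0.142). Both lay lower in the Synph-293 libraries without passing.

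HOXA9, a leukaemia-associated gene, was the most abundant HOXA gene in both lines at 25.0 and 18.8 TPM in HEK293 and 14.6 and 19.0 TPM in Synph-293. Its groups overlapped, as did those of HOXA3, HOXA4, HOXA5 and HOXA13. HOXA3, a gene of thymus and parathyroid formation, was at 6.71 and 6.72 TPM in HEK293 and 5.32 and 7.59 TPM in Synph-293, and HOXA4 at 6.84 and 9.69 TPM in HEK293 and 8.66 and 11.0 TPM in Synph-293. HOXA5, needed in mice for lung development, was at 10.3 and 11.4 TPM in HEK293 and 12.1 and 7.68 TPM in Synph-293, and HOXA13, of the hand, foot and genital tract, at 4.24 and 3.89 TPM in HEK293 and 4.18 and 3 TPM in Synph-293. The log2 fold changes of these 5 genes lay between -0.33 and 0.32. HOXA10 had 6 to 9 counts per library and was not tested.

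The surroundings of the HOXA cluster were lower in Synph-293. Its 30 nearest tested genes had a median log2 fold change of -0.60, and the flanking genes SNX10, SKAP2, HIBADH and TAX1BP1 fell in the edgeR fit. The flanking genes JAZF1 and CREB5 did not pass, with log2 fold changes of -0.32 ± 0.21 and -0.17 ± 0.15 (SE). In TPM, CREB5 was higher in both Synph-293 libraries than in both HEK293 libraries. HIBADH, a mitochondrial enzyme of valine breakdown, was at 54.99 and 61.6 TPM in HEK293 and 31.2 and 23.7 TPM in Synph-293, with the groups well apart (log2 fold change -1.07 ± 0.16 (SE), edgeR adjusted p = 0.00129). SKAP2, which codes for an adaptor protein, was at 29.8 and 39.1 TPM in HEK293 and 22.4 and 20.1 TPM in Synph-293 (log2 fold change -0.58 ± 0.17 (SE), edgeR adjusted p = 0.0371). SNX10 and TAX1BP1 had log2 fold changes of -0.87 ± 0.19 and -0.60 ± 0.16 (SE). SKAP2 and TAX1BP1 no longer passed with limma or with the omission of Synph-293 replicate 1 (edgeR adjusted p = 0.166 and 0.208) or 2 (0.302 and 0.268). SKAP2 also failed without HEK293 replicate 2 (0.0811), and SNX10 without Synph-293 replicate 2 (0.109). With a replicate block, SKAP2 and TAX1BP1 were at an adjusted p of 0.0986 and 0.0998. The tested HOXA genes had a median of -0.24, or -0.34 to -0.06 when a library was left out and 0.37 with the neighbours' median removed, and the difference from the region around them was not tested. With the neighbours' median removed, HOXA7 had a log2 fold change of 1.81, HOXA4 passed as higher at 0.92 (edgeR adjusted p = 0.0352), and HOXA6 was at -0.26. Of the 31 listed flanking genes of all 4 clusters, 27 were tested. With edgeR, SNX10, SKAP2, HIBADH and TAX1BP1 fell and none rose, with 1 higher at an unadjusted p under 0.05. DESeq2 and limma called none higher. Of all genes tested, 6.58% passed as lower and 10.0% as higher, and the difference in shares was not tested.

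**Figure D3:**
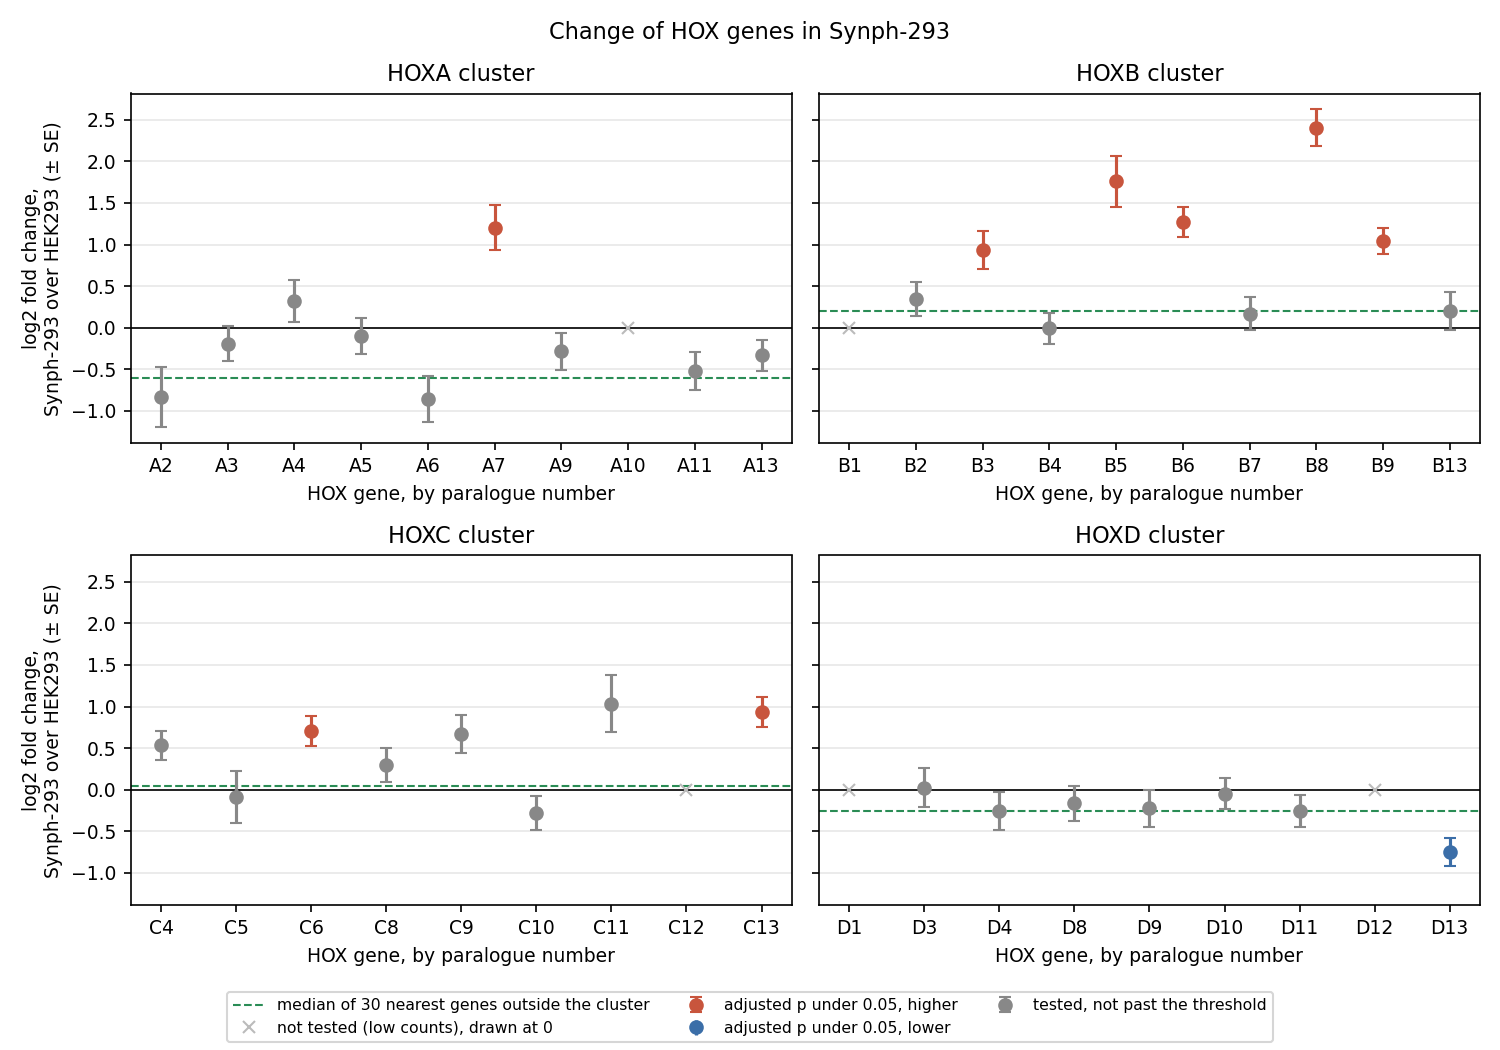
Log2 fold change ± SE (edgeR, Synph-293 over HEK293, 2 libraries each) of HOX genes by paralogue number; red is past the threshold as higher, blue as lower, grey not past, and crosses at 0 mark genes not tested. Dashed green lines are the medians of the 30 nearest genes outside each cluster; the rise of HOXB5, HOXB6, HOXB8 and HOXB9 stands above a line at 0.20, while the HOXA line lies at -0.60.

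Paralogues of the same number in different clusters had different calls, though the differences between paralogues were not tested. Among paralogues of group 13, HOXC13 rose, HOXD13 fell, and HOXA13 and HOXB13 did not pass. In group 6, HOXB6 and HOXC6 rose while HOXA6 had lower TPM in both Synph-293 libraries without passing. In group 8, HOXB8 rose, and HOXC8 and HOXD8 overlapped between the lines. In group 9, HOXB9 rose, HOXC9 was higher without passing, and HOXA9 and HOXD9 overlapped. In group 7, HOXA7 rose and HOXB7 did not pass. No gene of groups 10 to 12, among them the paralogues known for the kidney, passed the threshold in the main edgeR fit or with DESeq2. HOXC11 passed with edgeR when no filter on low counts was used (adjusted p = 0.0474). With replicate numbers crossed as a block, a pairing added after seeing the data, HOXA11 was among the HOX genes lower (edgeR adjusted p = 0.0452). HOXA11 and HOXC11 were at an unadjusted p of 0.0424 and 0.0123 in the edgeR fit.

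The classes by position along the clusters are given beside the 16.6% of all genes that passed, 10.0% as higher and 6.58% as lower. Differences between the classes were not tested. Of the 15 central genes of groups 4 to 8, all tested, 5 rose, with a median log2 fold change of 0.30 and summed levels of 117 and 132 TPM in HEK293 and 174 and 170 TPM in Synph-293. Of the anterior genes of groups 1 to 3, 1 of 6 tested passed, as higher, a share close to the 16.6% that passed in either direction. Their median was 0.18, and their sums were 33.0 and 30.1 TPM against 37.3 and 44.5 TPM. Of the posterior genes of groups 9 to 13, 2 of 13 tested rose and 1 fell, with a median of -0.23. When a library was left out, the medians ranged from 0.13 to 0.46 for the central, 0.10 to 0.25 for the anterior and -0.28 to -0.05 for the posterior genes. The posterior sums were 163 and 152 TPM against 173 and 166 TPM. In all 3 classes the groups did not overlap in sum, and the ratio of the means was 1.3 for the anterior, 1.38 for the central and 1.07 for the posterior genes.

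The order of genes within a cluster was largely shared by the lines. HOXA9, HOXB9, HOXC6 and HOXD10 ranked first by mean TPM in both. As a description across genes, Spearman's rho between the lines' mean levels was 0.882 over 11 HOXA, 0.879 over 10 HOXB, 0.950 over 9 HOXC and 0.983 over 9 HOXD genes. The corresponding rho between replicates was 0.894 to 0.982 in HEK293 and 0.952 to 0.983 in Synph-293. Levels followed no steady gradient along the clusters, with rho between level and paralogue number of 0.08, 0.31, -0.50 and 0.38 for HOXA, HOXB, HOXC and HOXD in HEK293 and -0.02, 0.41, -0.48 and 0.28 in Synph-293.

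The moves in rank came mostly from genes already described. In the HOXB cluster HOXB8 went from rank 8 of 10 in HEK293, at 2.54 ± 0.318 TPM, to rank 5 in Synph-293, at 16.3 ± 0.792 TPM (mean ± SD, n = 2). HOXB6 went from rank 4, at 10.0 ± 1.75 TPM, to rank 2, at 26.6 ± 1.22 TPM. HOXB4, whose level was stable, fell from rank 5 to rank 7 as others passed it. In HEK293 the HOXB genes at ranks 3 to 6, HOXB3, HOXB6, HOXB4 and HOXB2, lay at 10.1 ± 3.35, 10.0 ± 1.75, 8.49 ± 0.276 and 8.02 ± 1.22 TPM and neighbours in this order did not differ beyond their spread. In Synph-293 HOXB3, at 17.7 ± 4.45 TPM, overlapped both HOXB7, at 18.9 ± 0.672 TPM, and HOXB8, while HOXB7 was above HOXB8 in both libraries.

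In the HOXA cluster HOXA6 and HOXA7 passed each other in the order. HOXA6 went from rank 3 of 11, at 9.04 ± 0.191 TPM, to rank 6, at 4.76 ± 0.537 TPM. HOXA7 went from rank 8, at 2.85 ± 0.0495 TPM, to rank 5, at 5.88 ± 1.26 TPM. In Synph-293 the levels of this pair overlapped in their spread. In the HOXC cluster HOXC10 went from rank 4, at 8.47 ± 0.679 TPM, to rank 6, at 6.37 ± 0.912 TPM, and HOXC13 from rank 5 to rank 4. In the HOXD cluster HOXD13 went from rank 3, at 20.2 ± 2.76 TPM, to rank 4, at 12.0 ± 1.36 TPM. It overlapped HOXD11, at 20.4 ± 3.26 TPM, in HEK293, and HOXD4, at 13.4 ± 3.15 TPM, in Synph-293.

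Genes that act with or on HOX genes were read from lists. The shares of their tested members that passed are to be set beside the 16.6% of all genes, and most lay near or below it. Of 9 HOX cofactors, the PBX, MEIS and PKNOX genes, 1 passed the threshold. MEIS3, a MEIS-family partner of HOX proteins, was at 9.67 and 13.5 TPM in HEK293 and 34.3 and 30.5 TPM in Synph-293, with both Synph-293 libraries above (log2 fold change 1.65 ± 0.18 (SE), edgeR adjusted p = 1.20e-04). MEIS1 and MEIS2 did not pass, with log2 fold changes of -0.54 ± 0.17 and 0.61 ± 0.20 (SE).

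Of 28 Polycomb genes, all tested, 2 rose and 1 fell. EZH2, the methyltransferase that places the repressive mark on histone H3 over silent HOX genes, was at 53.3 and 53.7 TPM in HEK293 and 28.6 and 26.6 TPM in Synph-293. Both Synph-293 libraries were below both controls (log2 fold change -0.98 ± 0.15 (SE), edgeR adjusted p = 0.00128), and the call held in all 13 alternative settings. RBBP7, a histone-binding subunit shared by several chromatin complexes, was at 101 and 109 TPM in HEK293 and 198 and 195 TPM in Synph-293 (log2 fold change 0.77 ± 0.16 (SE), edgeR adjusted p = 0.00792). PCGF3, a subunit of a variant Polycomb complex, was at 24.6 and 27.4 TPM in HEK293 and 45.6 and 43.0 TPM in Synph-293 (log2 fold change 0.82 ± 0.15 (SE), edgeR adjusted p = 0.00372). Both genes had their Synph-293 libraries above the controls, and RBBP7 no longer passed after omission of Synph-293 replicate 1 (edgeR adjusted p = 0.0664) or 2 (0.0860).

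Of 15 trithorax and other activating chromatin genes, 1 rose. KDM6B, a demethylase that removes the mark EZH2 places, was at 5.57 and 4.86 TPM in HEK293 and 8.48 and 8.60 TPM in Synph-293. The groups did not overlap (log2 fold change 0.67 ± 0.16 (SE), edgeR adjusted p = 0.0148), and omission of Synph-293 replicate 1 (edgeR adjusted p = 0.0603) or 2 (0.147) ended the call, as did limma. KMT2A, the methyltransferase best known for maintaining HOX expression, was at 50.8 and 49.1 TPM in HEK293 and 32.8 and 35.8 TPM in Synph-293 and did not pass in the edgeR fit (log2 fold change -0.56 ± 0.18 (SE), edgeR adjusted p = 0.0527). DESeq2 called it lower at a log2 fold change of -0.56 (adjusted p = 0.0169), and limma called no gene of this list.

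Of 14 retinoid and CDX genes, 11 were tested and 1 rose, and CDX1 and CDX4 were at 0 in all libraries. ALDH1A2, the enzyme that makes retinoic acid in the embryo, was at 4.73 and 5.18 TPM in HEK293 and 13.2 and 14.3 TPM in Synph-293. Both Synph-293 libraries were above both controls (log2 fold change 1.21 ± 0.19 (SE), edgeR adjusted p = 0.00137), in all 13 alternative settings as well. The receptor genes RARA, RARB and RARG did not pass, with log2 fold changes of 0.18 ± 0.18, 0.54 ± 0.24 and -0.47 ± 0.18 (SE).

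Of 24 noncoding genes of the clusters, 12 were tested, 1 rose and 1 fell. HOTAIR, the long noncoding RNA of the HOXC cluster, was at 0.72 and 1.41 TPM in HEK293 and 4.03 and 4.49 TPM in Synph-293. It was higher in both Synph-293 libraries (log2 fold change 1.58 ± 0.31 (SE), edgeR adjusted p = 0.00559). Its annotated gene body overlaps that of HOXC11 on the opposite strand. HOXA10-AS, antisense to HOXA9 and HOXA10, was at 13.6 and 17.6 TPM in HEK293 and 8.32 and 10.4 TPM in Synph-293, lower in both Synph-293 libraries (log2 fold change -0.78 ± 0.23 (SE), edgeR adjusted p = 0.0352). That call was lost in 8 of 13 alternative settings, among them the omission of HEK293 replicate 2 (edgeR adjusted p = 0.0559) and of Synph-293 replicate 1 (0.212) or 2 (0.114). The libraries are described as stranded, but how strand was handled in counting is not stated. Whether the counts separate reads of a HOX gene from those of its antisense partner is therefore unknown. The miRNA genes MIR10A, MIR10B, MIR196A1, MIR196A2, MIR196B and MIR615 were at 0 in all 4 libraries. The RNA is labelled poly(A), so a count of 0 does not show that these short RNAs were absent.

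Of 12 other homeobox genes of the same class, 6 were tested and 1 rose. EN1, a gene of the midbrain-hindbrain boundary and of the limb, was at 0.61 and 0.88 TPM in HEK293 and 2.04 and 1.74 TPM in Synph-293. It was low in all 4 libraries and higher in the Synph-293 pair (log2 fold change 1.22 ± 0.35 (SE), edgeR adjusted p = 0.0362), and the call was lost without HEK293 replicate 1 (edgeR adjusted p = 0.117) or Synph-293 replicate 1 (0.256) and with DESeq2 (0.127), and it was lost with limma on log2(TPM + 0.1) but not on log2(TPM + 1).

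**Figure D4:**
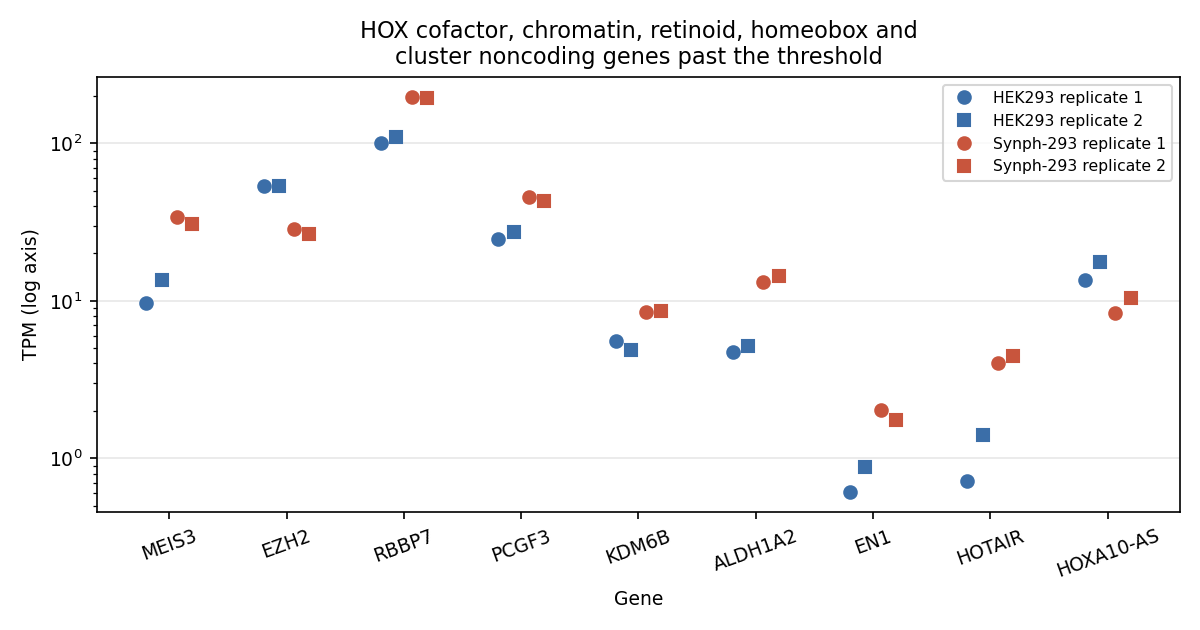
TPM on a log axis for the genes past the threshold among HOX cofactors, chromatin regulators, retinoid genes, other homeobox genes and cluster noncoding RNAs. Each point is 1 library, blue for HEK293 and red for Synph-293; MEIS3, ALDH1A2 and HOTAIR are higher and EZH2 and HOXA10-AS lower in both Synph-293 libraries.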

How the data were processed

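Per the labels' protocols, stranded mRNA libraries of HEK293 and Synph-293 (2 each) were sequenced as paired reads; RNA is labelled poly(A), and a total RNA kit is also named. The deposited table gives for each gene and library a count, an RPKM and a TPM value made by the authors. The deposited counts were handled like estimated counts that the authors had rounded, because 43 to 63 genes per library had TPM above 0 and no counts. The authors' TPM values, scaled for length and depth, served as levels, and their RPKM values went unused. RSEM 1.3.1, STAR 2.7.1a, Cufflinks 2.2.1, cutadapt 2.8, HTSeq 0.11.2, featureCounts 2.0.0 and GRCh38.p13 are named in the submitters' processing notes, without role or order. No strand setting is given in the sources used here.

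Counts were tested in R 4.3.3 with edgeR 4.0.16 (quasi-likelihood test, TMM scaling, filterByExpr with a minimum count of 10 and total of 15, group as the only term), adjusted by Benjamini-Hochberg over 16421 genes at 0.05. SE is the log2 fold change divided by the square root of F. The biological coefficient of variation was 13.0%. Replicates of a line differed by more than sampling noise (chi-square per degree of freedom 24.7 and 17.3). The fit was checked on simulated counts with known changes. Alternatives used limma 3.58.1 on log2(TPM + 1) and log2(TPM + 0.1), and DESeq2 1.42.0. Fold changes from counts can differ from ratios of TPM, which depend on the estimated transcript length.

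The HOX genes and 11 lists of 167 symbols were chosen with earlier results of these data known. All HOX genes enter the counts and sums, and 1 is not reported here by itself. Values per library are given for those past the threshold or with a mean of at least 1 TPM in a line, for SNCAIP, and for up to 4 members of a list, those past the threshold with the largest change. The other named non-HOX genes, such as the retinoid receptors, KMT2A, MEIS1, MEIS2, VIM and HBB, were chosen after their values were seen. Of the listed symbols 1 did not match, an older name of another listed gene. The printed sequences are RefSeq promoter windows, and GENCODE 29 transcripts served to find shared runs.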

Additional observations from a re-analysis of the deposited data

How the results depend on the processing

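With edgeR, 8 HOX genes were higher in Synph-293, 6 to 10 in the 13 alternative settings and 6 to 9 when a library was left out. The number lower was 1. It was 2 with no filter, 0 to 2 when a library was left out, and 0 with the median of the neighbours removed. In those settings with 0, 1 to 3 HOX genes were lower at an unadjusted p under 0.05. The single gene that limma called lower was HOXA6, not HOXD13. The summed HOXA log2 ratio was -0.18 from TPM and -0.14 from CPM. SKAP2, at -0.58, came to 0.0219 with the median of its neighbours removed, by construction of that setting. Over all genes, 1648 higher and 1081 lower became 1086 and 474 with limma on log2(TPM + 0.1), and 1049 to 2183 and 457 to 2042 when a library was left out.

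Replicate numbers are not stated to pair libraries, and deviations of same-numbered libraries correlated at -0.393 over 16421 genes. A replicate block gave 8 higher and 1 lower HOX genes, with 1380 and 719 over all genes. With the numbers crossed, a pairing added after seeing the data, 11 were higher and 3 lower, with 3251 and 3016 over all genes. In the simulated counts, 76 of 100 true 2-fold and 99 of 100 true 4-fold changes were recovered, with 6 false calls. Those changes were placed only in genes above a set mean count, and smaller changes were not simulated. With 2 libraries a group, changes of 2-fold and many below it can be missed. Genes that did not pass the filter on low counts were not tested.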
